A study of Homo sapiens with 11 samples.

Results

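The 30 genes described here are known targets and regulators of the transcription factor p53, measured by RNA-seq in Lx2 cells (the LX-2 line), a human hepatic stellate cell line. They were taken from the count table by symbol, 30 of the 35303 genes in the table. The list was chosen with earlier results of these data known. All 30 passed the filter on low counts that left 16117 genes to test. Lx2 cells, labelled as wild type and grown in DMEM with serum, were treated for 24 h in 3 ways. The PBS libraries are the controls. The HIV-1 libraries come from cells given HIV-1 Bal, a laboratory strain, at a multiplicity of infection of 0.1. The HIV-1+LTA libraries had the same virus plus LTA at 1 µg/mL, and the labels do not spell out the abbreviation. Each group has 3 libraries, numbered 1 to 3, and the labels give the number as a batch that holds 1 library of each group. No group had LTA without the virus, all libraries come from 1 cell line, and viral RNA was not analysed here. Whether the 3 libraries of a group came from separate cultures is not stated, so the p-values speak for the spread among libraries alone, and that spread may be technical.

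p53 is held at a low level in unstressed cells because MDM2, a gene that p53 itself switches on, marks the protein for degradation and MDM4 blocks its activity. DNA damage and other stresses release it. It then raises genes that halt the cell cycle (CDKN1A, which encodes p21), repair DNA (DDB2, XPC), open the mitochondrial route to death (BBC3, BAX) or put death receptors on the surface (FAS, TNFRSF10B), and it raises its own inhibitors, which closes the loop. In liver, p21 and other p53 targets are known from stellate cells that become senescent and stop making scar matrix. The LX-2 line was raised from stellate cells carrying the SV40 large T antigen, a viral protein that binds p53; p53 protein and its binding were not measured in this series.

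Letters that match the p53 binding site stand near the start of several of these genes, and 4 are shown because they belong to genes whose counts the results below turn on or that match without a mismatch. The motif searched was the p53 full site, a 20-base palindrome of 2 like elements side by side, with the core C and G of each element required and at most 1 mismatch among the other 16 positions, within 5000 bases on either side of the start of the principal transcript. Since the motif is a palindrome, a match on one strand is a match on the other. Each run is 30 bases of the hg19 (GRCh37) reference on the strand of its gene, 5′ to 3′, with the site in capitals.
CCNG1: tgtgaGCACAAGCCCAGGCTAGTCCgaggc
GADD45A: gtacaGAACATGTCTAAGCATGCTGgggac
PLK2: atgagAAACATGCCTGGACTTGCCCtgcac
ZMAT3: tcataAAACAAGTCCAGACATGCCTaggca
The CCNG1 run is at chr5:162864927-162864956, plus strand, in an intron with its centre 340 bases after the start. The GADD45A run is at chr1:68152453-68152482, plus strand, in an intron 1584 bases after the start. The PLK2 run is at chr5:57758096-57758125, minus strand, upstream of the gene. The ZMAT3 run is at chr3:178787971-178788000, minus strand, in an intron 1612 bases after the start. PLK2 and ZMAT3 had no mismatch, and CCNG1 and GADD45A had 1. A match with at most 1 mismatch was found near 7 of the 30 genes (23.3%), against 145 of 13907 protein-coding genes that were tested (1.04%), and the other 3 were DDB2, PERP and RRM2B. Several of these sites are long known from work on p53, so their number describes the list and says nothing about binding in Lx2 cells. Sites with bases between the 2 elements, more mismatches or a greater distance were not searched. A gene without a match here may therefore still have a site.

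The depth was 50628144 to 90599780 counts per library. Batch 3 stood apart: 71.2% of all tested genes differed between its 3 libraries and the other 6 in edgeR's quasi-likelihood test with Benjamini-Hochberg adjustment. HIV-1+LTA replicate 1 stood out among the HIV-1+LTA libraries by how little it differed from an HIV-1 library. The chi-square per degree of freedom between its counts and those of HIV-1 replicate 1 was 4.87, the lowest of all pairs of libraries. Replicates 2 and 3 of HIV-1+LTA also lay closest to an HIV-1 library, at 51.6 (HIV-1 replicate 1) and 60.4 (HIV-1 replicate 3). No pair agreed within sampling noise. Treatments were therefore compared within batches. Stellate cell markers summed to 3836 to 7536 CPM per library, where CPM are counts scaled to the size of the library, and 9 of the 10 averaged 1 CPM or more. The sum hides opposite differences between batches: of the 9 tested, edgeR called 3 higher and 4 lower in batch 3. COL1A2 had 33.2 to 41.1 CPM in batches 1 and 2 and 270.5 to 323.5 in batch 3. COL3A1 had 388.5 to 723.6 CPM in batches 1 and 2 and 146.1 to 273.1 in batch 3. Of 15 lymphocyte and monocyte markers 13 averaged below 1 CPM, with CD2 and FCGR3A at 0 in every library. CD4 was an exception, with 12.8 to 18.2 CPM in batches 1 and 2 and 1.36 to 2.43 in batch 3. Averages below 1 CPM also held for 7 of 8 hepatocyte, 4 of 5 endothelial and 3 of 4 cholangiocyte and epithelial markers. In the last 2 lists, TEK ran from 2.44 to 9.33 CPM and KRT7 from 2.8 to 7.6 over the 9 libraries. In these bulk libraries, fewer cells that express a gene and less RNA per cell cannot be told apart.

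The 30 genes differed widely in level per kilobase of transcript. PLK2, a kinase of the stress response, had the highest median over the 9 libraries at 79.8 CPM per kb, ahead of BAX, the pore-forming death effector, at 71.2 and CCNG1, cyclin G1, at 58.8. Their ranges of 56.4 to 146.2, 54.9 to 85.9 and 51.1 to 66.2 overlapped. The short survival factor TRIAP1 followed at 35.1 CPM per kb, then EI24 at 34.6, GADD45A at 29.7 and the death receptor TNFRSF10B at 25.6. The p21 gene CDKN1A ranked 9th with a median of 16.3 CPM per kb and a range of 6.13 to 32.6, one of the wider spreads of the set. At the bottom were BBC3, which encodes the BH3-only death protein PUMA, at 1.09, the receptor gene TNFRSF10A at 0.756, the mitochondrial quality gene SPATA18 at 0.34 and GDF15, a secreted stress cytokine, at 0.149 CPM per kb. GDF15 had 0 to 34 counts per library, so its values are limited by counting.

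**Figure D1:**
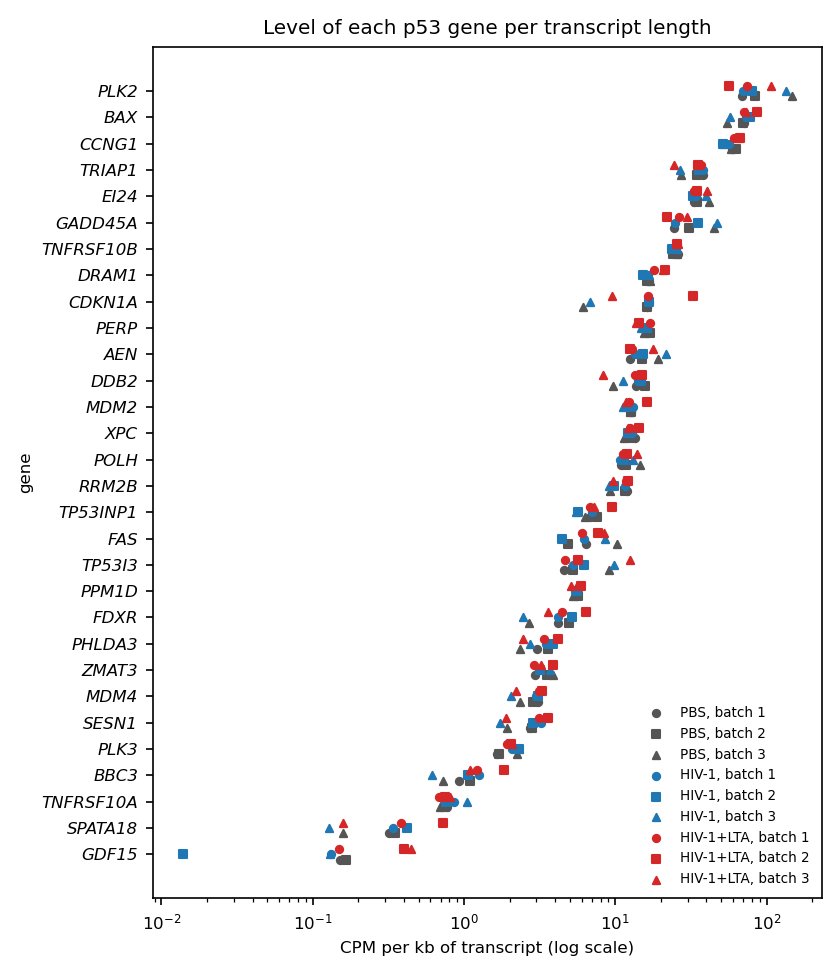
Level of each of the 30 p53 genes in each of the 9 libraries, in CPM per kilobase of transcript on a log axis, with genes ordered by their median, colour for treatment and symbol for batch. PLK2, BAX and CCNG1 sit at the top and GDF15 at the bottom, where the PBS batch 3 library, with 0 counts, is not drawn. The triangles of batch 3 stand to one side of the other symbols for CDKN1A, TP53I3 and SPATA18.

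The first comparison asks what the virus alone did. No p53 gene passed in HIV-1 against PBS: edgeR called 0 of 30 members and 0% of all 16117 genes, and DESeq2 called 0 members and 0.015% of its 19990 genes, 3 in number. At an unadjusted p under 0.05, edgeR had 678 genes (4.21%) and 2 members, and limma-voom had 681 genes and called none after adjustment. The members' median log2 fold change was -0.02, with 13 of 30 above 0, and the median of all genes was -0.0015. A share of 33.4% of all genes moved the same way in the 3 batches, and so did 14 of the 30 members.

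The members with unadjusted p under 0.05 were CCNG1 and PLK3. CCNG1 encodes a cyclin that brings a phosphatase to MDM2 and so restrains p53. Its level was 144, 153 and 142 CPM in the PBS libraries of batches 1, 2 and 3 and 138, 126 and 125 CPM in the HIV-1 libraries. The groups did not overlap, as for 2.74% of all genes, and the log2 fold change was -0.17 (SE 0.0561, edgeR adjusted p = 0.946). PLK3, another kinase of the stress response, had 3.89, 3.96 and 5.20 CPM in PBS and 4.83, 5.39 and 5.38 in HIV-1, with a log2 fold change of 0.27 (SE 0.116, edgeR adjusted p = 0.946). PLK3 shares 98 exon bases with DYNLT4 on the other strand, and the strand setting of the counting is not given in the sources used here.

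The genes that mark p53 activity most directly showed no difference with HIV-1 beyond their spread. MDM2 had 94.9, 95.3 and 93.6 CPM in PBS and 98.2, 92.7 and 83.7 in HIV-1, for a log2 fold change of -0.05 (SE 0.0827). CDKN1A had 34.5, 34.5 and 12.98 CPM in PBS and 35.4, 35.4 and 14.5 in HIV-1, a log2 fold change of 0.07 (SE 0.153). In both groups the batch 3 library was far below the other 2, and within a batch the HIV-1 and PBS libraries lay side by side. PHLDA3, which blocks the survival kinase AKT, had 8.29, 9.79 and 6.42 CPM in PBS and 9.53, 10.6 and 7.54 in HIV-1, and was higher with HIV-1 in each batch (log2 fold change 0.18, SE 0.0865, edgeR adjusted p = 0.946).

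The second comparison asks what LTA added in cells that also had the virus. The outcome depended on the tool. By edgeR no member passed, as no gene did (0% of 16117), with the lowest adjusted p at 0.171 over all genes, and limma-voom likewise called none. By DESeq2, the tool the submitters name, 3 of the 29 members with an adjusted p rose, CCNG1, DRAM1 and TP53INP1, against 1.82% of 13401 genes called in either direction and 1.34% called higher. At an unadjusted p under 0.05 in edgeR there were 10 of 30 members (33.3%), against 15.4% of all genes. Of these, 7 were higher with LTA (CCNG1, CDKN1A, GDF15, TP53INP1, BBC3, FDXR and DRAM1, background 8.11%) and 3 were lower (GADD45A, PLK2 and AEN, background 7.32%). The members' median log2 fold change was 0.06 with 21 of 30 above 0, where all genes had a median of -0.0038 with 48.9% above 0. The 13 mitochondrially encoded genes, whose share of the RNA can vary with its quality, had this pattern: all 13 had values below 0 in HIV-1 against PBS (median -0.21, 9 at an unadjusted p under 0.05 in edgeR) and above 0 in HIV-1+LTA against HIV-1 (median 0.18, again 9). By DESeq2, 0 of the 13 were called in the first and COX1 and COX2 were called higher in the second, and edgeR called none in either. Their summed level was 12620 to 14530 CPM in PBS, 10700 to 12640 in HIV-1 and 12930 to 15000 in HIV-1+LTA, and their part in the p53 gene results was not tested.

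**Figure D2:**
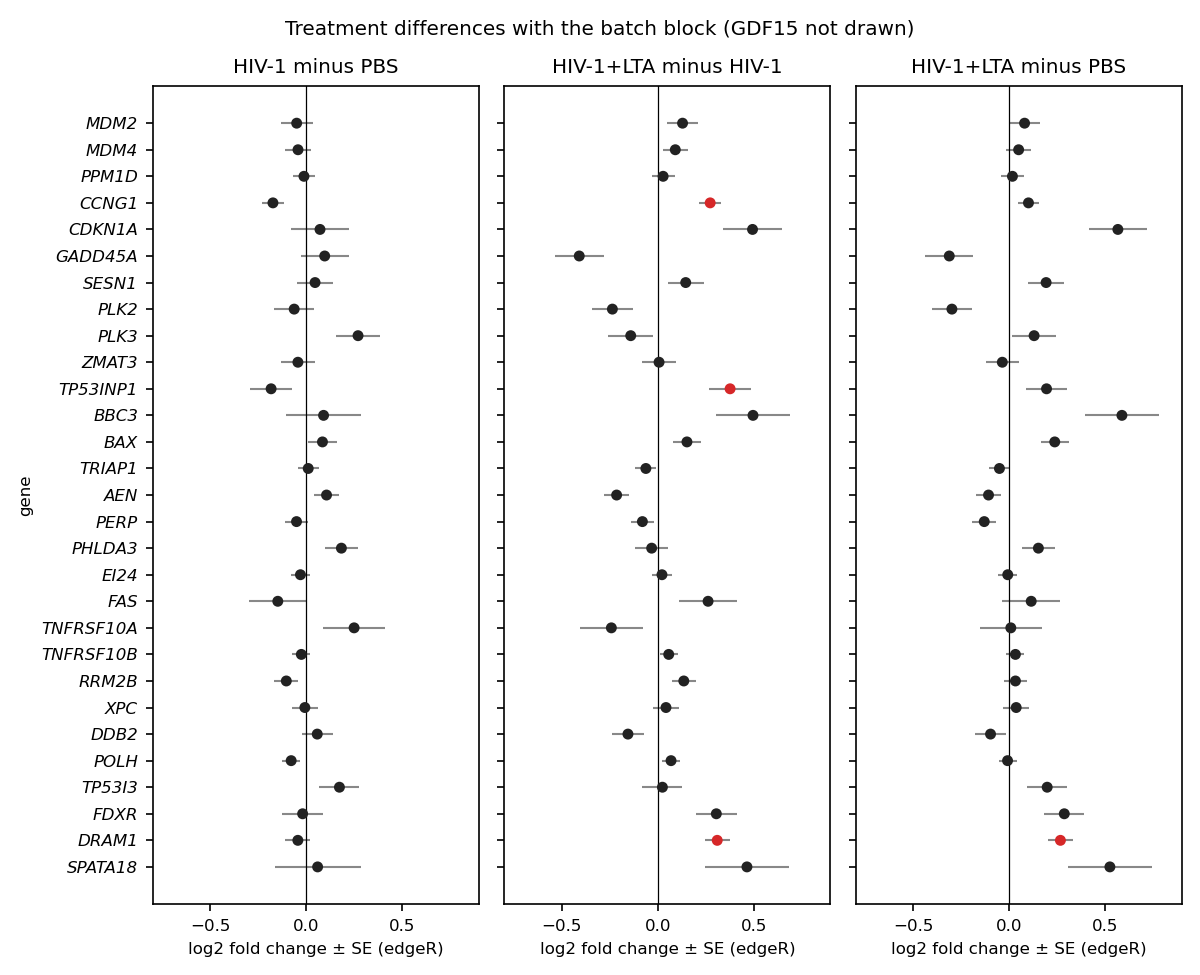
Log2 fold change with its standard error (bars) from edgeR with the batch block, for 29 p53 genes in the 3 treatment comparisons, with zero marked by the vertical line. GDF15 is not drawn because its 0 to 34 counts give a standard error of 0.788 in HIV-1+LTA minus HIV-1. Red points passed an adjusted p of 0.05 in DESeq2: CCNG1, TP53INP1 and DRAM1 in HIV-1+LTA minus HIV-1, and DRAM1 in HIV-1+LTA minus PBS. The last 2 panels share the HIV-1+LTA libraries.

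Among the negative regulators of p53, all 4 were above 0 and CCNG1 rose by DESeq2. CCNG1 reached 150, 162 and 159 CPM in the 3 HIV-1+LTA libraries, against 138, 126 and 125 in HIV-1. The groups did not overlap, which held for 3 members in all, also DRAM1 and GDF15 (10% of members and 4.37% of all genes). The log2 fold change was 0.28 (SE 0.0653, DESeq2 adjusted p = 0.00591), and 0.27 (SE 0.0561, adjusted p = 0.171) in edgeR. Since CCNG1 was lowest in the HIV-1 group, its difference between HIV-1+LTA and PBS was smaller, 0.10 (SE 0.0559, edgeR adjusted p = 0.383). MDM2, the ubiquitin ligase for p53, had 92.9, 121.2 and 87.8 CPM with LTA, so that only the batch 2 library stood above the HIV-1 libraries, and its log2 fold change was 0.13 (SE 0.0829, edgeR adjusted p = 0.48). MDM4, the inhibitory partner of MDM2, ran from 22.2 to 33.0 CPM with LTA, against 20.6 to 30.9 in HIV-1. PPM1D, the phosphatase that shuts off the damage signal, ran from 24.2 to 28.2, against 25.7 to 26.8 in HIV-1. Their log2 fold changes were 0.09 (SE 0.0662) for MDM4 and 0.03 (SE 0.0596) for PPM1D, called by neither tool. In log2 CPM, MDM2 was lower with LTA in batch 1 (-0.08) and PPM1D in batch 3 (-0.09).

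The genes of arrest and growth split. TP53INP1, which feeds p53 signalling and autophagy, had 39.1, 31.8 and 30.6 CPM in HIV-1 and 38.2, 53.6 and 40.7 in HIV-1+LTA, a rise by DESeq2 (log2 fold change 0.38, SE 0.109, adjusted p = 0.0354) that edgeR did not call (adjusted p = 0.194). That call was lost under 10 of 13 alternatives, also without any single PBS library (DESeq2 adjusted p = 0.0539 to 0.109), where those of CCNG1 and DRAM1 were lost under 7 each. The batch 1 libraries did not differ, and the batch 2 and 3 libraries with LTA were both above their partners. CDKN1A followed the same order: 35.4, 35.4 and 14.5 CPM in HIV-1 against 34.8, 69.1 and 20.2 with LTA. Its within-batch differences were -0.03, 0.97 and 0.47 in log2 CPM, and the fitted 0.49 (SE 0.153) passed neither edgeR (adjusted p = 0.206) nor DESeq2 (adjusted p = 0.291). GDF15 had 9, 1 and 9 counts in HIV-1 and 12, 34 and 26 with LTA, and 17, 16 and 0 in PBS, where 0 allows up to 0.06 CPM (3 counts, counting error only). Its fitted difference of 1.81 (SE 0.788, edgeR adjusted p = 0.304) thus rests on at most 34 reads a library.

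In the same group, PLK2 and GADD45A were on the other side of 0. PLK2 had 194, 222 and 375 CPM in HIV-1 and 208, 157 and 297 with LTA, for a log2 fold change of -0.24 (SE 0.106, edgeR adjusted p = 0.316). GADD45A, a growth arrest and DNA repair gene, had 33.3, 47.3 and 63.5 CPM in HIV-1 and 35.5, 29.5 and 40.2 with LTA. Both were slightly higher with LTA in batch 1 and lower in batches 2 and 3. The GADD45A difference was -0.41 (SE 0.127, edgeR adjusted p = 0.207), with batch values of 0.09, -0.68 and -0.66. PLK3 had 4.47, 4.78 and 4.89 CPM with LTA, below its HIV-1 partner in each batch by 0.11 to 0.17 in log2 CPM (-0.14 fitted, SE 0.116). The sestrin SESN1, a sensor that restrains mTOR, ran over 10.7 to 20.4 CPM with LTA, against 9.76 to 18.4 in HIV-1. ZMAT3, a p53-induced RNA-binding protein, ran over 26.0 to 34.8 CPM with LTA, against 27.9 to 33.1 in HIV-1. In batches 1, 2 and 3, SESN1 differed by -0.04, 0.34 and 0.14 in log2 CPM. ZMAT3 differed by -0.10, 0.31 and -0.20, and neither tool called these 2 genes.

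Among the 7 genes of cell death, no call was made by either tool and 3 were above 0. BBC3 had 2.33, 1.97 and 1.14 CPM in HIV-1 and 2.23, 3.38 and 2.02 with LTA, with batch differences of -0.06, 0.77 and 0.81 and a fitted 0.50 (SE 0.193, edgeR adjusted p = 0.264). BAX had 58.1, 61.9 and 45.4 CPM in HIV-1 and 56.6, 68.3 and 57.9 with LTA (0.15, SE 0.0742, edgeR adjusted p = 0.351). AEN, a nuclease that p53 induces during apoptosis, pointed the other way in every batch: 41.6, 47.1 and 66.5 CPM in HIV-1 against 39.8, 38.6 and 54.4 (-0.21, SE 0.0639, edgeR adjusted p = 0.201). The batch 2 and 3 pairs thus showed BBC3 and AEN on opposite sides, though both are known p53 targets with a part in cell death. PHLDA3 had 9.21, 11.4 and 6.70 CPM with LTA (-0.03, SE 0.0866). PERP, a membrane protein of adhesion and death, TRIAP1 and EI24, an endoplasmic reticulum protein, had 57.1 to 71.1, 28.1 to 42.4 and 72.6 to 88.3 CPM with LTA, against 62.0 to 68.3, 30.7 to 43.6 and 71.8 to 86.4 in HIV-1, with neither tool calling them.

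The 3 death receptor genes gave no call. FAS, the receptor of the Fas ligand, had 15.9, 11.3 and 21.9 CPM in HIV-1 and 15.5, 19.8 and 21.5 with LTA. It was higher in batch 2 alone, by 0.80 in log2 CPM, while batches 1 and 3 differed by -0.03 and -0.02, and the fitted 0.26 (SE 0.153, edgeR adjusted p = 0.434) became -0.027 without HIV-1+LTA replicate 2. TNFRSF10B stayed between 94.3 and 104 CPM in all 9 libraries, and TNFRSF10A between 1.85 and 2.80. TNFRSF10A was lower with LTA than with HIV-1 in each batch, with differences of -0.31, -0.024 and -0.37 in log2 CPM. TNFRSF10B shares 67 exon bases with RHOBTB2 on the other strand, so its counts may hold some reads of that gene.

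The 4 genes of DNA repair and nucleotide supply gave none either. RRM2B, the p53-induced subunit of ribonucleotide reductase, had 55.3, 46.9 and 43.1 CPM in HIV-1 and 55.8, 58.0 and 45.8 with LTA, higher in each batch (0.14, SE 0.0622, edgeR adjusted p = 0.325). The damage sensors XPC and DDB2 and the bypass polymerase POLH were called by neither tool. XPC ran from 41.4 to 52.1 CPM over the 9 libraries, and the values of the other 2 are given with the batches. POLH shares 30 exon bases with GTPBP2 on the other strand.

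All 4 genes of redox, autophagy and mitochondrial quality were above 0, with a median of 0.31, and DRAM1 passed in DESeq2. DRAM1 encodes a lysosomal membrane protein through which p53 promotes autophagy. Its level was 53.7, 50.02 and 54.9 CPM in HIV-1 and 59.1, 69.6 and 68.0 with LTA, so every LTA library was above every HIV-1 and every PBS library. The rise was 0.31 (SE 0.0765, DESeq2 adjusted p = 0.00827; edgeR 0.31, SE 0.0648, adjusted p = 0.171). FDXR, the mitochondrial ferredoxin reductase, had 7.72, 9.56 and 4.50 CPM in HIV-1 and 8.14, 11.9 and 6.60 with LTA, higher in each batch (0.31, SE 0.106, edgeR adjusted p = 0.236). SPATA18, with 0.571 to 3.23 CPM over the 9 libraries, was higher with LTA than with HIV-1 by 0.17, 0.78 and 0.28 in log2 CPM in batches 1, 2 and 3. TP53I3, a quinone oxidoreductase with 7.56 to 20.6 CPM, differed by -0.17, -0.14 and 0.34, and neither was called.

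**Figure D3:**
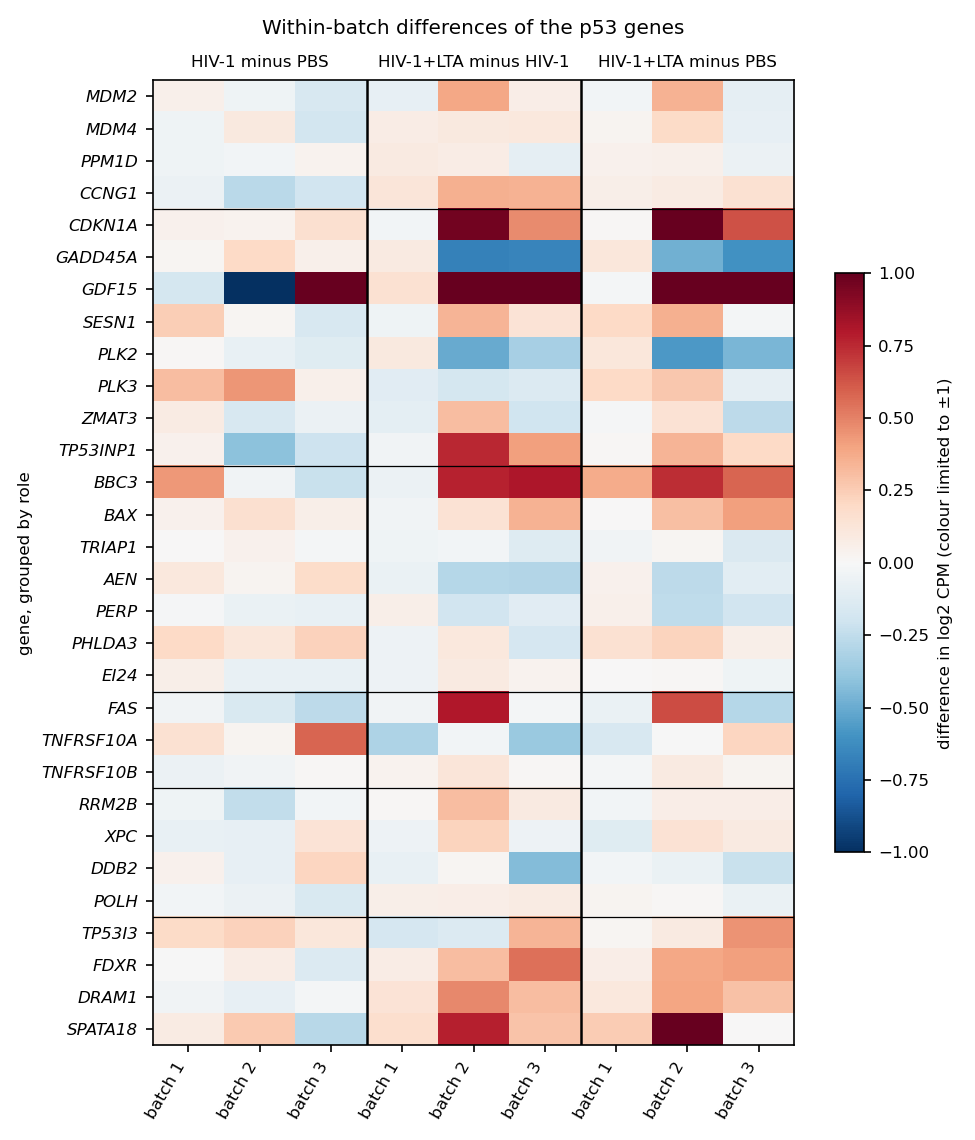
Difference in log2 CPM between 2 libraries of the same batch, for each p53 gene (rows, grouped by role) and each comparison and batch (columns), with colour limited to ±1. For HIV-1+LTA minus HIV-1, the batch 1 column is pale and the batch 2 and 3 columns hold the strong colours: CDKN1A, TP53INP1 and BBC3 are red in both, and GADD45A and PLK2 blue in both. FAS is red in batch 2 only.

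The batches carried unequal parts of this comparison. In batch 1 only 1 of the 30 members, TNFRSF10A, differed by more than 0.3 in log2 CPM between HIV-1+LTA and HIV-1 (3.33%, against 16% of all genes). In batch 2 there were 15 (50%, against 30.9% of all genes) and in batch 3 there were 13 (43.3%, against 27.7%). The number that passed 0.3 the same way in batches 2 and 3 was 9 of 30 (30%), against 11.9% of all genes. They were CCNG1, CDKN1A, GDF15, TP53INP1, BBC3, FDXR and DRAM1 above 0 and GADD45A and PLK2 below. The size of the members' differences, taken without sign, had a median of 0.07 in batch 1, 0.30 in batch 2 and 0.24 in batch 3, where all genes had 0.07, 0.18 and 0.16. With 1 library per treatment in a batch, a difference between batches in the response cannot be tested.

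Leaving out HIV-1+LTA replicate 1 changed the calls. Without it edgeR called 10 of 30 members, the same 7 genes higher as listed above except that BAX took the place of GDF15, and GADD45A, PLK2 and AEN lower, with 14.6% of all genes called. Without the whole of batch 1 the same 10 members were called, with 9.69% of all genes. CDKN1A stood at 0.76 in both, while without batch 2 or HIV-1+LTA replicate 2 it was 0.22. In DESeq2 the 3 calls became 9 without HIV-1+LTA replicate 1, with 15.9% of all genes called. They became 0 without any single one of replicates 2 and 3 of HIV-1 or HIV-1+LTA.

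**Figure D4:**
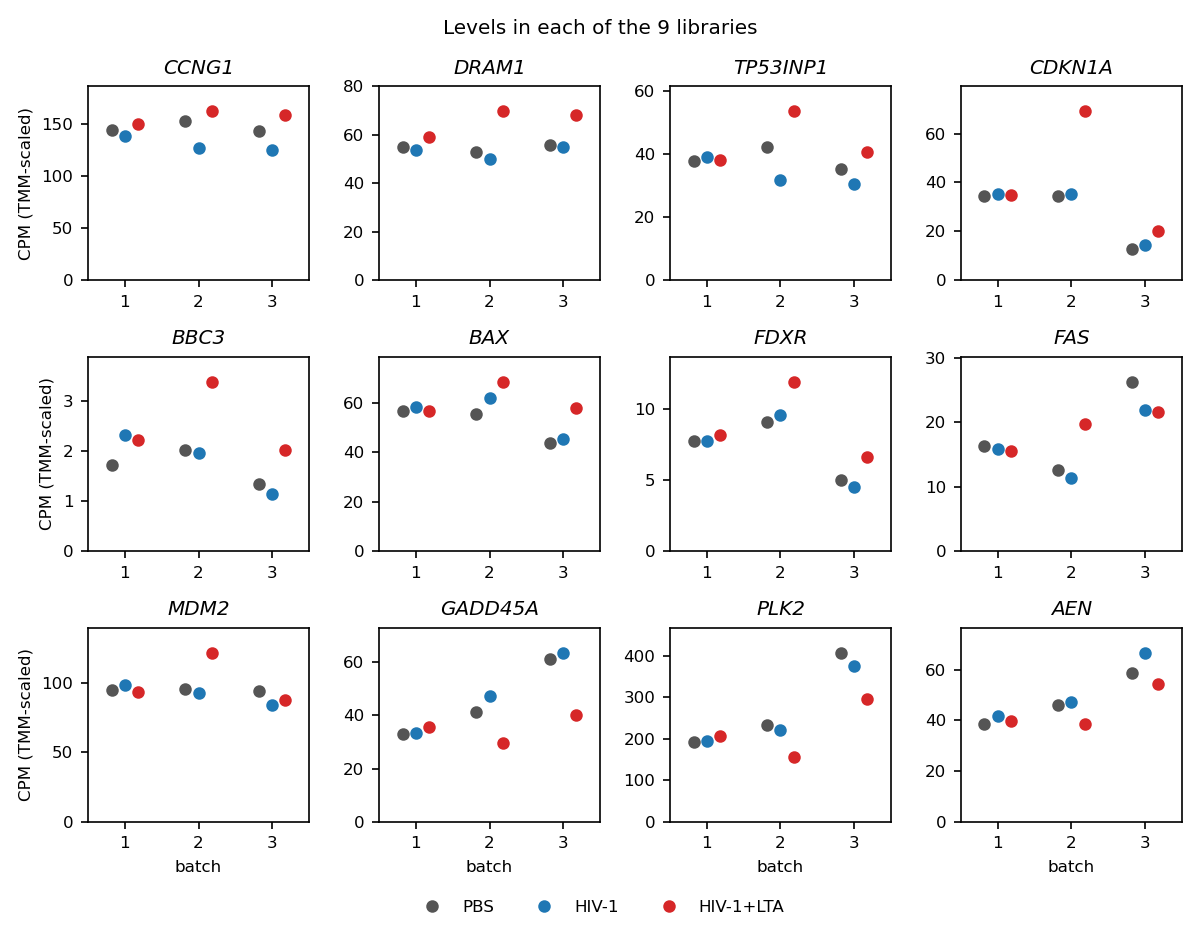
CPM of 12 p53 genes in each of the 9 libraries, by batch, with 1 point per library and colour for treatment, and each vertical axis starting at 0. In batch 1 the HIV-1 and HIV-1+LTA points of a gene lie close together, while the PBS point of BBC3 is lower than both (1.72 against 2.33 and 2.23 CPM). In batches 2 and 3 the HIV-1+LTA point is above the other 2 for CCNG1, TP53INP1, CDKN1A, BBC3, BAX, FDXR and DRAM1. It is below them for GADD45A, PLK2 and AEN, and CDKN1A reaches 69.1 CPM in batch 2.

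The third comparison sets HIV-1+LTA against PBS and shares the HIV-1+LTA libraries with the second. DRAM1 was the single member called by DESeq2, of the 28 with an adjusted p, at 0.26 (SE 0.0762, adjusted p = 0.0439), against 1.93% of 12239 genes called in either direction and 0.964% called higher. In edgeR no member and no gene passed (0%), with the lowest adjusted p at 0.205. At an unadjusted p under 0.05 edgeR had 8 members, 6 higher (CDKN1A, BBC3, BAX, FDXR, DRAM1 and SPATA18) and 2 lower (GADD45A and PLK2), against 16.8% of all genes, 8.67% higher and 8.13% lower. The authors' deposited table does not name its comparison, but its log2 fold changes equalled those of DESeq2 for HIV-1+LTA against PBS within 0.01 in 19990 of 19990 genes, and in the authors' deposited table DRAM1 has 0.26 and an adjusted p of 0.0439.

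The PBS levels show where the HIV-1+LTA libraries stood against the untreated cells. In batches 1, 2 and 3, PBS had 37.9, 42.3 and 35.4 CPM of TP53INP1. GADD45A was at 32.9, 41.2 and 61.1 CPM and PLK2 at 192, 234 and 407. In batches 2 and 3 both of these were lower with LTA than in PBS, and TP53INP1 was higher. AEN had 38.7, 46.2 and 58.5 CPM in PBS, and FAS 16.3, 12.5 and 26.2. For FDXR the PBS libraries gave 7.76, 9.08 and 4.96 CPM, and for RRM2B 56.9, 55.6 and 43.9. FDXR was higher with LTA than in PBS in each batch, and FAS was higher in batch 2 and lower in batches 1 and 3.

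Of the 7 cell death genes, 3 were above 0 in this comparison: BAX, BBC3 and PHLDA3. The median of the 7 was -0.008. Every HIV-1+LTA library was above every PBS library for BAX (56.5, 55.5 and 43.7 CPM in PBS, 56.6 to 68.3 with LTA), for BBC3 (1.72, 2.01 and 1.34 in PBS, 2.02 to 3.38 with LTA) and for DRAM1 (54.9, 52.9 and 55.6 in PBS, 59.1 to 69.6 with LTA). These were 3 of 30 members (10%), against 3.82% of all genes. The lowest HIV-1+LTA value was barely above the highest PBS value for BAX (56.59 against 56.48 CPM) and BBC3 (2.022 against 2.013 CPM). The fitted differences of BAX and BBC3 were 0.24 (SE 0.0741, edgeR adjusted p = 0.206) and 0.59 (SE 0.191, edgeR adjusted p = 0.208). In batches 1, 2 and 3, BAX differed by 0.003, 0.30 and 0.41 in log2 CPM and BBC3 by 0.37, 0.74 and 0.58. CDKN1A stood at 0.57 (SE 0.152, edgeR adjusted p = 0.205), with 0.01, 1.00 and 0.63 in the batches. MDM2 was at 0.08 (SE 0.0827) and TP53INP1 at 0.19 (SE 0.107). PLK2 and GADD45A were at -0.30 (SE 0.106) and -0.31 (SE 0.126). Without HIV-1+LTA replicate 1, edgeR called 10 members, 6 higher and 4 lower, with 16.2% of all genes, and without batch 1 it called 7, with 10.7%.

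The batches were compared last. Batch 3 differed from batches 1 and 2 in 19 of 30 members by edgeR (63.3%), which is near the 71.2% of all genes called, and in 20 by DESeq2, against 56.8%. Among the members 7 were higher in batch 3 (35.2% of all genes) and 12 were lower (36%). The comparison sets 1 batch against 2, so its p-values measure the spread of libraries within batches, and what the batch number stands for is not given in the labels.

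Known p53 targets moved in both directions with batch. CDKN1A fell by 1.34 (SE 0.141, edgeR adjusted p = 3.7e-06), from 34.5 to 69.1 CPM in batches 1 and 2 to 12.98 to 20.2 in batch 3, with no overlap. SPATA18 fell by 1.47 (SE 0.213), FDXR by 0.75 (SE 0.0958), SESN1 by 0.73 (SE 0.084), BBC3 by 0.61 (SE 0.175) and DDB2 by 0.59 (SE 0.0729). PHLDA3, MDM4, TRIAP1, RRM2B, BAX and PERP fell by 0.14 to 0.50. By role, edgeR called 2 higher and 2 lower among the arrest and growth genes, 2 higher and 5 lower among the cell death genes, and 1 higher and 2 lower in each of the repair and the redox and mitochondrial groups. In the order PBS, HIV-1 and HIV-1+LTA, SPATA18 had 1.42, 1.51 and 1.70 CPM in batch 1, 1.56, 1.87 and 3.23 in batch 2, and 0.70, 0.571 and 0.701 in batch 3. In the same order SESN1 had 15.5, 18.4 and 17.8 CPM, then 15.9, 16.1 and 20.4, then 10.9, 9.76 and 10.7. DDB2 had 25.0, 25.7 and 24.5 CPM, then 28.6, 26.9 and 27.3, then 17.4, 20.2 and 15.0. In each of these 3 genes all batch 3 libraries were below all others. MDM4 had 31.0, 30.1 and 31.6 CPM, then 28.9, 30.9 and 33.0, then 23.5, 20.6 and 22.2. TRIAP1 had 43.6, 43.6 and 42.4 CPM, then 39.9, 41.1 and 40.5, then 31.1, 30.7 and 28.1. PERP had 68.7, 68.3 and 71.1 CPM, then 71.1, 68.1 and 59.7, then 65.4, 62.0 and 57.1. MDM4 and TRIAP1 did not overlap between the batches, PERP did, and the PERP call was lost under 6 of 14 alternatives. BBC3 and EI24 each lost theirs under 1.

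TP53I3 rose by 1.00 (SE 0.0872, edgeR adjusted p = 7.2e-07), PLK2 by 0.83 (SE 0.0889), FAS by 0.62 (SE 0.129), GADD45A by 0.57 (SE 0.107), AEN by 0.51 (SE 0.0543), POLH by 0.28 and EI24 by 0.26. TP53I3 had 7.56, 8.62 and 7.65 CPM in batch 1, in the same order of treatments, 8.73, 10.2 and 9.30 in batch 2, and 15.1, 16.3 and 20.6 in batch 3. POLH had 91.9, 90.2 and 93.9 CPM, then 98.8, 95.1 and 99.5, then 121.3, 109.1 and 116. EI24 had 72.4, 75.3 and 72.6 CPM, then 75.7, 71.8 and 76.3, then 90.8, 86.4 and 88.3. None of these 3 overlapped between batch 3 and the others. GADD45A, PLK2 and AEN, which had lower values with LTA than with HIV-1 in batches 2 and 3, were higher in batch 3. MDM2 at -0.16 (SE 0.0723), CCNG1 at -0.04 (SE 0.0487) and DRAM1 at 0.07 (SE 0.056) did not pass in edgeR. Libraries did not overlap between batch 3 and the other 2 batches for 16 of 30 members (53.3%, against 60.8% of all genes). With library totals in place of TMM scaling, the median of all genes moved to -0.17 and the members' median from -0.12 to -0.28.

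**Figure D5:**
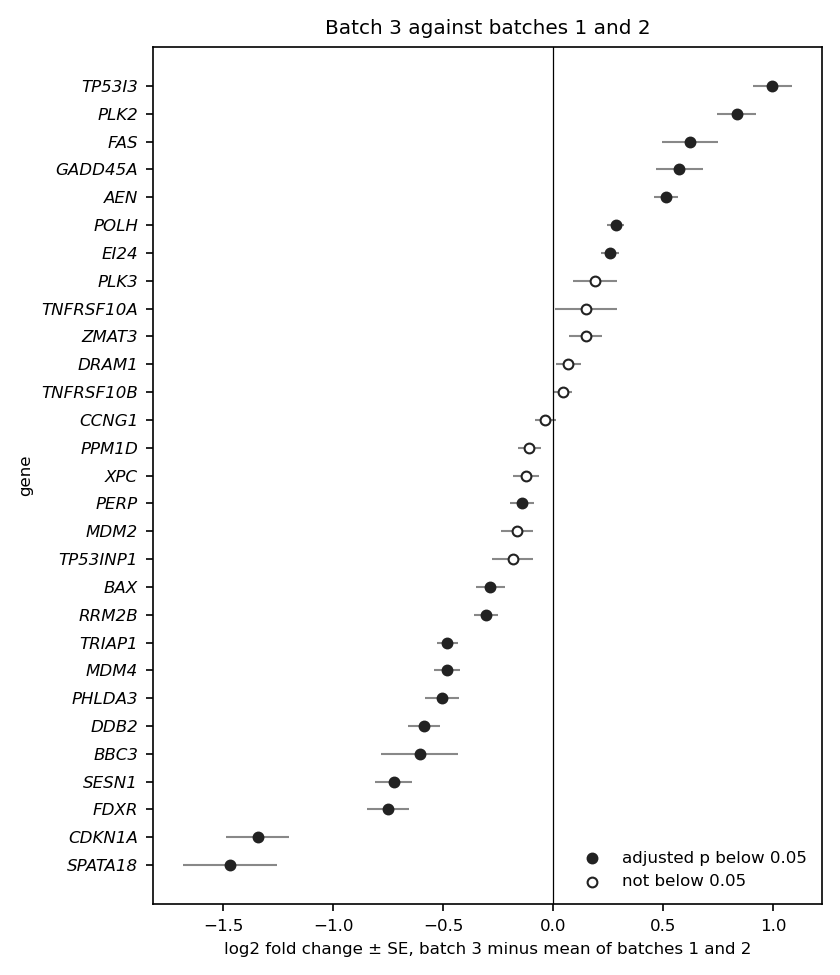
Log2 fold change of batch 3 against the mean of batches 1 and 2, with standard errors (bars), for 29 p53 genes, ordered by value; filled points had an adjusted p below 0.05 in edgeR. SPATA18 and CDKN1A lie lowest, at -1.47 and -1.34, and TP53I3 and PLK2 highest, at 1.00 and 0.83. GDF15, with at most 34 counts, is not drawn.

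The rest of the pathway was read from lists that do not contain the 30 genes. Of 82 other p53 targets, 76 were tested in edgeR, with none called in the treatment comparisons. Between HIV-1+LTA and HIV-1, 21 of the 76 had an unadjusted p under 0.05 in edgeR (15.4% of all genes did) and the median was 0.03. DESeq2 called 5 of 72 higher (1.34% of all genes) and 0 lower: FAM210B, EDA2R, TRIM22, BCL2L11 and PLXNB2. PLXNB2 was named after its values were seen. The p53-induced antiviral gene TRIM22 had 10.5, 10.2 and 7.77 CPM in HIV-1 and 12.1, 21.5 and 11.6 with LTA (0.64, SE 0.143, DESeq2 adjusted p = 0.00303). EDA2R, a receptor of the TNF family, had 2.12, 1.78 and 5.26 CPM in HIV-1 and 2.25, 3.54 and 9.18 with LTA (0.65, SE 0.188, DESeq2 adjusted p = 0.038). Both had their smallest difference in batch 1, 0.20 for TRIM22 and 0.08 for EDA2R, against 1.07 and 0.97 in batch 2. Against PBS, DESeq2 called 3 of 69 higher (0.964% of all genes), NINJ1, BCL2L11 and PLXNB2, and none lower.

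The proteins that control p53 gave a different count. Of 30 other regulators and cofactors, such as the kinases ATM and CHEK2 and the acetylase EP300, none was called by edgeR or DESeq2 in any treatment comparison, and 8 of 30 were above 0 in HIV-1+LTA against HIV-1, with 3 at an unadjusted p under 0.05 in edgeR, against 15.4% of all genes. Of 28 cell cycle genes that p53 lowers through p21 and the DREAM repressor complex, none was called by edgeR or DESeq2 in the treatment comparisons either. Their median was 0.02 in HIV-1+LTA against HIV-1, with 15 of 28 above 0 and 2 at an unadjusted p under 0.05 in edgeR, against the same 15.4%, beside the CDKN1A difference of 0.49.

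The deposited ChIP-seq peak list, 166 peaks named for the HIV-1 library of Lx2 cells (1 library per treatment), had none within 100 kb of the start of any of the 30 genes, where 3.27% of 13907 protein-coding genes had one. The protein that was precipitated is not given in the sources used here.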

How the data were processed

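Total RNA of 9 Lx2 libraries was sequenced. Raw counts per gene symbol were deposited by the authors, made per the submitters' processing notes with fastp, STAR, SAMtools and HTSeq on hg19; versions are not given in the sources used here. The authors' deposited table holds a mean normalised signal, log2 fold changes with standard errors, a Wald score and p-values; the labels name DESeq2. Members and lists were chosen with earlier results of these data known.

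Counts were filtered with filterByExpr, scaled by TMM and tested in edgeR 4.0.16 (R 4.3.3; quasi-likelihood, group plus batch, all 9 libraries, Benjamini-Hochberg over 16117 genes, threshold 0.05). The standard error is the log2 fold change over the root of F. DESeq2 1.42.0 (genes with at least 10 counts in total) and limma-voom (limma 3.58.1) used the same design. The batch block was used because the labels give the batch and the deposited fold changes equal a fit with it; deviations from the group means correlated at 0.817 to 0.983 between same-numbered libraries of different groups and at -0.942 to 0.894 between others (0.778 to 0.894 for batch 1 with batch 2), so the numbers mainly set batch 3 apart. CPM are TMM-scaled, and within-batch differences are log2 CPM with a prior count of 2. Levels per kilobase use the principal transcript of GENCODE on GRCh37. The scripts were tested on simulated data.

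Values in every library are given for members called in any comparison by edgeR or DESeq2 with the block, the 5 with the lowest p in each treatment comparison, and MDM2, CDKN1A, GDF15 and TP53INP1; of other lists, at most 4 called genes by lowest p, or else at most 2. Alternatives were no batch block, DESeq2, limma-voom, DESeq2 size factors, library totals, no low-count filter, at least 1 CPM in 3 libraries, and leaving out each batch and each library. DESeq2 without the block and with each batch or library left out was added after seeing the data.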

Additional observations from a re-analysis of the deposited data

How the results depend on the processing

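Each treatment comparison was refitted under 19 alternatives. In HIV-1+LTA against HIV-1, the members called went from 0 to 3 with DESeq2 (1.82% of all genes called) and 7 with no low-count filter (4.02%). They went from 0 to 10 when a batch or library was left out. The 10 were reached both without batch 1 (9.69% of all genes) and without HIV-1+LTA replicate 1 (14.6%). Against PBS they went from 0 to 1 with DESeq2 (1.93% of all genes called) and 6 with no low-count filter (4.14%). With a batch or library left out they went from 0 to 10, and 16.2% of all genes were called where the members reached 10. Without the replicate block, edgeR called 0 members in each treatment comparison, with 42, 153 and 141 of all genes at an unadjusted p under 0.05, and DESeq2 lost its calls, to 0 and 0. By DESeq2 with the block, the calls ran from 0 to 9 in both HIV-1+LTA comparisons as batches or libraries were left out. Against HIV-1 they were 8 without batch 1 (11.1% of all genes called) and 9 without HIV-1+LTA replicate 1 (15.9%). They were 0 without batch 2, batch 3, or replicate 2 or 3 of HIV-1 or of HIV-1+LTA. Against PBS the call was kept and joined by others without batch 1 (6), PBS replicate 1 (3) and HIV-1+LTA replicate 1 (9). In these 3 fits 12.2%, 4.85% and 18.8% of all genes were called. The call was lost in every other case (0). The members' median in HIV-1 against PBS ran from -0.041 to 0.018, and in batch 3 against batches 1 and 2 it was -0.28 with library totals.

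Directions that turned when a batch or library was left out had these ranges. In HIV-1 against PBS they were -0.13 to 0.022 for MDM2, -0.057 to 0.24 for CDKN1A, -1.11 to 0.48 for GDF15, -0.18 to 0.0097 for PLK2, -0.18 to 0.22 for BBC3, -0.089 to 0.0079 for DRAM1 and -0.081 to 0.058 for FDXR, which was also 0.0067 with library totals. Between HIV-1+LTA and HIV-1 they were -0.0095 to 0.24 for MDM2, -0.027 to 0.43 for FAS and -0.10 to 0.030 for PHLDA3. Between HIV-1+LTA and PBS they were -0.059 to 0.16 for MDM2, -0.18 to 0.31 for FAS and -0.020 to 0.079 for RRM2B. Of 1227 values of single genes under an alternative, 31 turned in direction, 42 lost a call and 52 gained one. The 1227 include genes called in the batch comparison and DESeq2 refits of called genes, and none of those turned. Why calls differed between settings was not tested. GDF15, with at most 34 counts a library, is limited by depth.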

Other observations

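Other groups of genes were followed beside the p53 genes, the stress genes of ATF4 and CHOP and the genes of the p53 family. Of the 10 stress genes, DESeq2 called 1 in HIV-1+LTA against HIV-1, PPP1R15A, which was lower (-0.30, SE 0.0894, adjusted p = 0.044). Of all genes, 0.485% were called lower there. PPP1R15A encodes a phosphatase subunit that restarts translation. It had 57.6, 80.5 and 89.97 CPM in HIV-1 and 58.8, 56.9 and 66.8 in HIV-1+LTA, so the batch 1 pair did not share the difference of batches 2 and 3, as for GADD45A, another gene that stress raises with and without p53. In PBS PPP1R15A had 55.1, 63.4 and 67.4 CPM, close to HIV-1+LTA. NUPR1, of the same list, was on the other side of 0 in HIV-1+LTA against HIV-1 (0.47, SE 0.137, edgeR adjusted p = 0.194). Its batch differences were 0.22, 0.82 and 0.36 in log2 CPM. Of the 10 stress genes, 3 were above 0 in that comparison.

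TP73, a relative of p53 that binds many of the same sites, had 8.48, 7.93 and 3.58 CPM in PBS, 7.92, 9.91 and 5.54 in HIV-1 and 8.89, 12.8 and 6.31 in HIV-1+LTA. DESeq2 called it higher in HIV-1+LTA than in PBS (0.49, SE 0.148, adjusted p = 0.048), and the difference was 0.07, 0.69 and 0.81 in batches 1, 2 and 3. Where TP73 shares exon bases with its antisense neighbour, their reads cannot be told apart without a strand setting, and that overlap was not measured here. Another relative, TP63, did not pass the filter on low counts.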
